A study of Mus musculus with 4 samples.

Results

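The ADAMTS genes (a disintegrin and metalloproteinase with thrombospondin motifs) were followed through 4 RNA-seq libraries of mouse shoulder capsule cells. The members are the 10 genes Adamts1, Adamts2, Adamts4, Adamts5, Adamts6, Adamts7, Adamts9, Adamts10, Adamts12 and Adamts15, which were taken by symbol from a table of 16416 genes, and all 10 were found there. The libraries were 1 per group and came from cultures named synovial fibroblasts in the labels, which grew out of joint capsule tissue 1 week after the shoulder was immobilized and were used at passage 2. The groups were wild-type C57BL6/J cells, miR-26a -/- cells, miR-26a -/- cells given the Silencer Negative Control at 10 nM, and miR-26a -/- cells given a double-stranded miR-26a mimic at 10 nM. Both oligonucleotides were delivered for 24 h with a lipid reagent. The first pair of groups was not transfected. The sources used here do not give the age of the mice, whether tissue of several mice was pooled, or the strain of the knockout.

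ADAMTS proteins are secreted zinc proteases that are held near the cell by thrombospondin repeats and cut molecules of the extracellular matrix. Adamts2 trims the amino-terminal propeptide from fibrillar procollagens, which lets the collagen assemble into fibrils. Adamts1, Adamts4, Adamts5, Adamts9 and Adamts15 cut large hyaluronan-binding proteoglycans such as aggrecan and versican, Adamts7 and Adamts12 cut cartilage oligomeric matrix protein, and Adamts6 and Adamts10 act at fibrillin microfibrils. Timp3, a matrix-bound inhibitor, blocks several of these enzymes. In frozen shoulder the capsule thickens with collagen, which makes enzymes of collagen maturation and proteoglycan turnover of interest in capsule cells.

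MicroRNAs pair with transcripts mainly through the seed, bases 2 to 8, and the sites counted here are those of the untranslated 3' end (3' UTR). The guide strand of the mimic, printed here because its seed sets which sites were searched, was identical to the RefSeq sequence of mmu-miR-26a-5p (GRCm38.p6). It follows with the seed in capitals.
miR-26a-5p: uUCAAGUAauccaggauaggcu
The complement of the seed is TACTTGA, and TACTTGAA is the 8-base site. The GENCODE M21 annotation (GRCm38) gave a 3' UTR for all 10 members, and 3 of them held TACTTGA, against 12.3% of 12330 genes with a 3' UTR measured in the mimic comparison. Adamts6 and Adamts7 held the 8-base site, which was present in 5.33% of the same genes, and Adamts9 held the 7-base site. The sites are shown with 10 flanking bases on each side, in the sense of the transcript, with the site in capitals.
Adamts6, chr13:104495168-104495175, plus strand: taatgcttcgTACTTGAAcacttgtagc
Adamts7, chr9:90207809-90207816, plus strand: gtaacgcagaTACTTGAAtatggacatc
Adamts9, chr6:92772869-92772875, minus strand: caagacatttTACTTGAgaaagcctga
The Adamts7 site lies in the 3' UTR of an alternative transcript, beyond the RefSeq gene span of 90162904 to 90200102 on chromosome 9. The other 7-base part of the 8-base site, ACTTGAA, stood alone once in Adamts5 and once in Adamts6, and is not counted among the sites above. No TACTTGA was found in the annotated 3' UTRs of Adamts1, Adamts2, Adamts4, Adamts5, Adamts10, Adamts12 and Adamts15.

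Libraries held between 17598763 and 19392655 estimated counts. Every ratio below is a log2 ratio of 2 libraries, scaled by trimmed-mean (TMM) factors after adding 1 count, and is followed by an exact 95% binomial interval in parentheses. A gene was measured with at least 1 CPM (count per 1e6 counts) in either library, and it was called higher or lower with at least a 2-fold ratio and an interval that excludes 0. Intervals cover counting error only. Since each group is 1 library, differences were not checked against replicates and no p-value is given, and each ratio compares 2 libraries and not the conditions. The mature microRNA is not among the genes of the table, and the knockout label was therefore not checked against it.

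Levels, given as TPM (transcript abundance corrected for length and depth), spanned a wide range among the members. In wild type, the levels of Adamts1 (201 TPM), Adamts5 (125 TPM) and Adamts2 (112 TPM) were above 95.2%, 92.2% and 91.2% of all genes in the table. These 3 genes made up between 83.9% and 85.4% of the summed TPM of the 10 members in each library. Adamts4, Adamts10 and Adamts12 followed at 22.95, 19.1 and 17.0 TPM, and Adamts7, Adamts15, Adamts6 and Adamts9 lay at 6.55, 4.27, 2.59 and 2.17 TPM. Counting intervals of neighbours in this order overlapped for Adamts10 and Adamts12 and for Adamts6 and Adamts9, and not for the other neighbours. The summed TPM of the members was 512 in the wild-type library, 261 in the knockout, 251 with the negative control and 289.50 with the mimic.

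**Figure D1:**
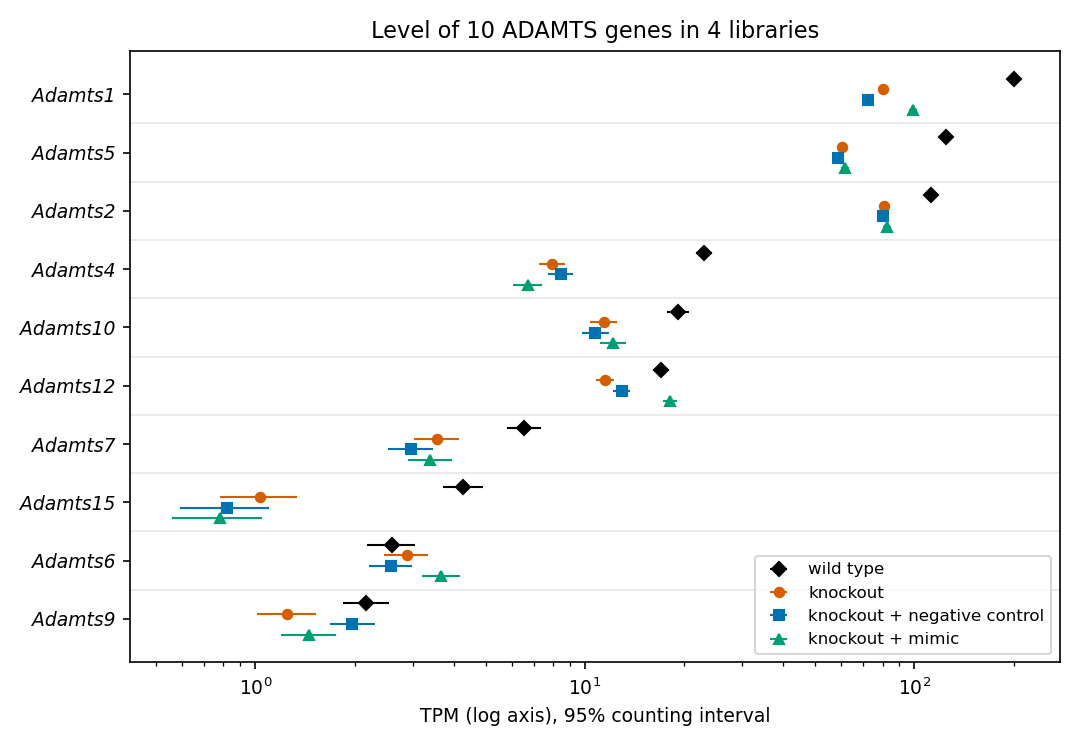
TPM of the 10 ADAMTS genes on a log axis in the 4 libraries, 1 symbol per library, with bars for the 95% Poisson counting interval of that library. The wild-type symbol (diamond) stands to the right of all 3 knockout libraries for 8 genes. The exceptions are Adamts6 (2.59 TPM in wild type, 2.58 to 3.67 TPM in the others) and Adamts12 (17.0 TPM in wild type, 11.5 to 18.1 TPM in the others).

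The order of the members was not the same in the other libraries. In the knockout library Adamts2 at 81.0 TPM and Adamts1 at 80.3 TPM led with overlapping intervals, ahead of Adamts5 at 60.1 TPM. With the negative control Adamts2 led at 80.4 TPM, above Adamts1 at 72.2 TPM, and with the mimic Adamts1 led at 98.9 TPM, above Adamts2 at 82.7 TPM. Adamts15 was the lowest member in each of the 3 knockout libraries, although in the untransfected one its interval overlapped that of Adamts9.

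The first comparison asked how capsule cells of miR-26a knockout mice differ from wild-type cells. Of the 10 members 3, Adamts15, Adamts4 and Adamts1, were called lower in the knockout library and none was called higher, where 7.00% of 12803 measured genes were called lower and 5.91% higher. The ratio was below 0 for 9 members, each with an interval wholly below 0, as were the intervals of 30.3% of measured genes. No member had an interval wholly above 0, against 32.6% of measured genes. TPM was under wild type in all 3 knockout libraries for 8 members, and for 47.1% of measured genes. The median ratio was -0.75 for the members and 0.01 for all measured genes. With counts instead scaled so that the median of 16 fibroblast markers is 0, the members split into 5 above and 5 below 0. Under that scaling 1 was called higher (Adamts6) and 1 lower (Adamts15), where 28.7% of measured genes were called higher and 2.40% lower.

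The aggrecan- and versican-cutting members held all 3 calls. Adamts1 (Entrez Gene 11504) had 8220 counts in the wild-type library, 3564 in the knockout, 3507 with the negative control and 4464 with the mimic, or 201, 80.3, 72.2 and 98.9 TPM. All 3 knockout libraries lay under the wild type, and the knockout to wild-type ratio was -1.19 (-1.25 to -1.14). Adamts4 (240913), an aggrecanase, had 22.95, 7.97, 8.44 and 6.71 TPM in the same order, from 1227, 462, 536 and 396 counts, and a ratio of -1.40 (-1.56 to -1.24). Adamts15 (235130) fell from 4.27 TPM in wild type to 1.03, 0.82 and 0.78 TPM, from 198 to 56, 43 and 43 counts, with a ratio of -1.79 (-2.27 to -1.38). Adamts4 and Adamts15 were more than 2-fold under wild type, on scaled counts, in all 3 knockout libraries, as were 5.36% of measured genes.

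The remaining members of this group missed the 2-fold limit. Adamts5 (23794), the main aggrecanase of mouse cartilage, had 8631 counts in wild type and 4515, 4811 and 4713 counts in the knockout libraries, or 125, 60.1, 58.4 and 61.6 TPM. The 3 knockout libraries were close together and apart from wild type. Its ratio was -0.92 (-0.98 to -0.87) on scaled counts and -1.05 on deposited TPM, which is past the limit. The median of all measured genes was 0.01 on scaled counts and -0.11 on deposited TPM. Adamts9 (101401) had 2.17 TPM in wild type and 1.25, 1.97 and 1.46 TPM in the others, with a knockout to wild-type ratio of -0.68 (-1.08 to -0.31). Its negative-control library lay near the wild type, and their counting intervals overlapped.

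The procollagen-trimming member was among the least different. Adamts2 (216725) had 6925 counts in wild type and 5437, 5911 and 5649 in the knockout libraries, or 112, 81.0, 80.4 and 82.7 TPM. Its ratio was -0.34 (-0.39 to -0.29), and the 3 knockout libraries differed by at most 0.04 on the log2 scale. The share of Adamts1 in the members' TPM was 39.3% in wild type and 30.8% in the knockout library, while that of Adamts2 was 21.9% and 31.0%.

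Of the members that cut cartilage oligomeric matrix protein, Adamts7 (108153) had 6.55 TPM in wild type and 3.57, 2.96 and 3.39 TPM in the knockout libraries, a ratio of -0.82 (-1.11 to -0.55). Adamts12 (239337) had 17.0, 11.5, 12.95 and 18.1 TPM in the order wild type, knockout, negative control and mimic. Its knockout to wild-type ratio was -0.43 (-0.56 to -0.31), and the mimic library was the only knockout library that reached the wild-type level. Among the fibrillin-associated members Adamts10 (224697) had 19.1, 11.4, 10.8 and 12.2 TPM, a ratio of -0.63 (-0.81 to -0.45). Adamts6 (108154) had 139 counts in wild type and 168, 182 and 225 in the others, or 2.59, 2.88, 2.58 and 3.67 TPM, with the mimic library the highest. Its ratio of 0.28 (-0.05 to 0.62) was the only one above 0, and its interval spans 0.

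**Figure D2:**
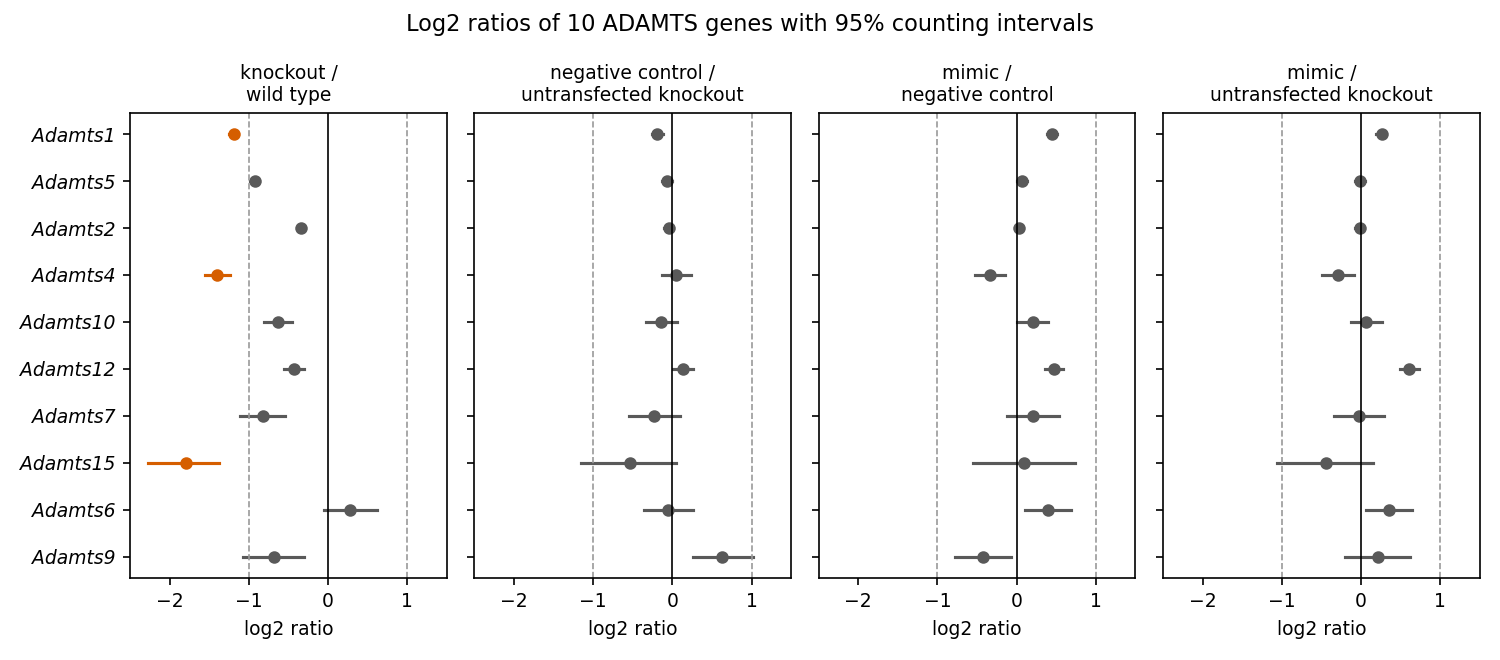
Log2 ratios of the 10 ADAMTS genes in 4 comparisons, with 95% counting intervals as bars; orange marks genes past the dashed 2-fold lines with an interval that excludes 0. Orange symbols stand only in the knockout to wild-type panel, for Adamts1 (-1.19), Adamts4 (-1.40) and Adamts15 (-1.79), and the 3 panels that compare knockout libraries hold none.

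Neighbouring and overlapping genes bear on some of these values. Adamts1 and Adamts5 lie next to each other on chromosome 16, at 85793827 to 85803113 and 85858157 to 85901125 (GRCm38.p6), and had ratios of -1.19 and -0.92. The others lie apart, with Adamts2 on chromosome 11 (50602085 to 50807573), Adamts4 on 1 (171250129 to 171262267), Adamts6 on 13 (104286518 to 104496695), Adamts9 on 6 (92772699 to 92944450), Adamts10 on 17 (33523646 to 33553782) and Adamts12 on 15 (11064773 to 11349232). Adamts15 lies at 30899155 to 30922452 of chromosome 9, beside Adamts8 at 30942562 to 30963838, and Adamts8 had 5 counts in wild type and 1, 2 and 3 in the knockout libraries. Exons of Adamts7 share 122 bases with Tbc1d2b on the opposite strand, at 90.8 TPM in wild type and 37.7 TPM in the knockout. Adamts9 shares 1381 exon bases with A730049H05Rik and 424 with Gm15737, both on the opposite strand, with no values used here. Whether counting used strand is not given in the sources used here, so reads in these shared stretches cannot be assigned with certainty.

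Promoter sequence from RefSeq (GRCm38.p6), running from 250 bases before the start of transcription to 50 after, was held for Adamts1, Adamts2, Adamts9 and Adamts12. The first pair are shown because they are both abundant and differ in their ratios, with capitals for the TATA box TATAAA and the GC box GGGCGG, searched on both strands.
Adamts1, chr16:85803064-85803363, minus strand: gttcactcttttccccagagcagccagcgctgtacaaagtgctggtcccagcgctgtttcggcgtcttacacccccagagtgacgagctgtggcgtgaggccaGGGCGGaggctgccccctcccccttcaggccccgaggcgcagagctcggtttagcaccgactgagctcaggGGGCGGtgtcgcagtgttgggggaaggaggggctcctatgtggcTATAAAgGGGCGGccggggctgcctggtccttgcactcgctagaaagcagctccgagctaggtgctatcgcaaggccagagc
Adamts2, chr11:50601835-50602134, plus strand: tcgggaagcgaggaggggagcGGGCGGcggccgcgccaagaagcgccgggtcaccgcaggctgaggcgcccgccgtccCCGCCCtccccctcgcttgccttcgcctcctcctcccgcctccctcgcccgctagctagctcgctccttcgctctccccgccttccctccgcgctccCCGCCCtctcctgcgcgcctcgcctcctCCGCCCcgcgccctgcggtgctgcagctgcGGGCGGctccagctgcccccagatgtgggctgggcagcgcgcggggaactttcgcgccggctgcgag
The Adamts1 window held TATAAA with its first base at -32 and 3 GC boxes, and the Adamts2 window held 5 GC boxes and no TATAAA. Over 32851 promoter windows of the same length 13.6% held TATAAA and 35.7% held a GC box. The AP-1 motif TGANTCA, the NF-kB consensus, the TEAD motif GGAATG and the E box CACGTG matched in none of the 4 windows, against 7.81%, 0.155%, 14.7% and 7.15% of all windows. These are matches of letters and not measured binding.

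The cultures were checked against markers of fibroblasts and of other cell types. Fibroblast markers summed to 27178 TPM in wild type and between 16418 and 18586 TPM in the knockout libraries, with none of 17 at 0, and 7 of 16 measured were called lower with a median ratio of -0.76. Macrophage markers were abundant in cultures labelled as fibroblasts, at 23477 TPM in wild type and between 33308 and 34581 TPM in the knockout libraries, with 9 of 17 measured called higher and a median of 1.06; Cd163 alone was at 0, in the knockout library. All 7 proliferation genes were called higher. Markers of cartilage and tendon summed to 521 TPM in wild type and 57.1 to 100.2 TPM in the others, those of Schwann cells to 303 and 119 to 125 TPM, of adipocytes to 285 and 83.8 to 92.7 TPM, of muscle to 20.3 and 5.31 to 8.76 TPM, and of pericytes to 1493 and 2123 to 2913 TPM, although 6 of the 8 pericyte genes had ratios below 0. Lining markers summed to 332 and 215 to 281 TPM, those of osteoblasts to 7459 and 8479 to 9729 TPM, endothelial markers to 11.0 to 11.8 TPM in all libraries, and epithelial markers to 0.20 and 3.93 to 5.11 TPM. Comp alone made up 491 TPM of the wild-type cartilage and tendon sum. In that list 4 genes were called lower in the knockout library and 1 (Col2a1) higher. Calls also went both ways among osteoblast markers (1 lower, 2 higher) and endothelial markers (2 lower, 1 higher). Besides Cd163, the markers of these lists at 0 in some library were Pecam1, Adipoq, Cidec, Ckm, Myh4, Matn3, Bglap, Ibsp, Krt14 and Cdh1. The part of these cell type differences in the ADAMTS ratios was not tested, and in bulk RNA fewer cells of a type and less RNA per cell cannot be told apart.

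**Figure D3:**
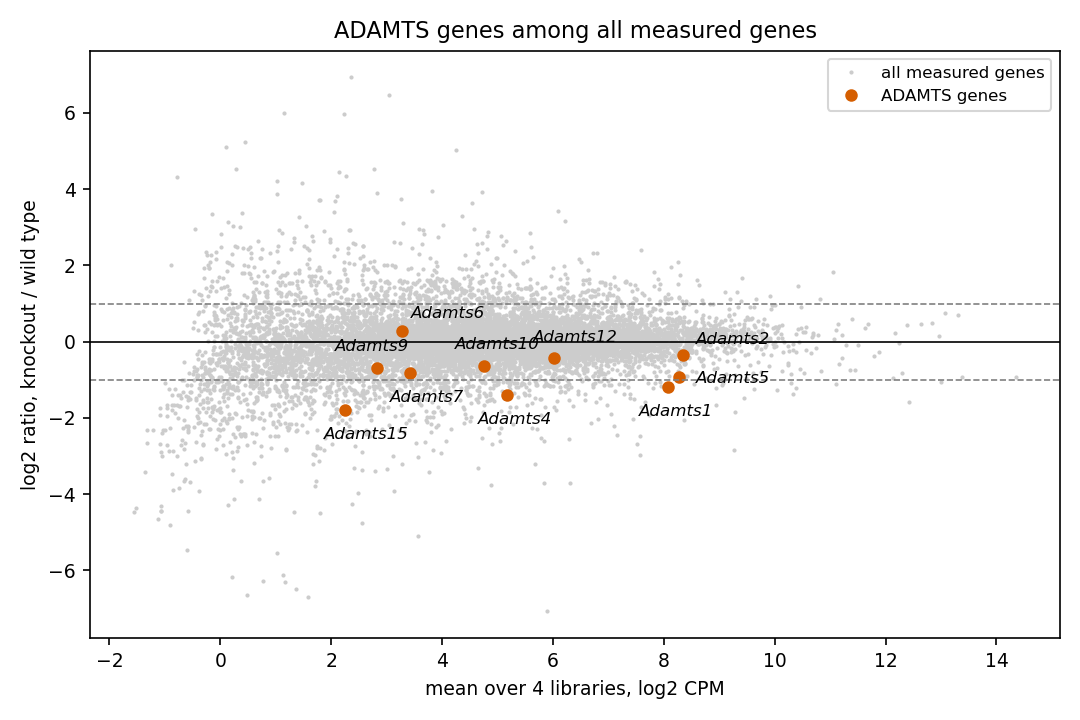
Knockout to wild-type log2 ratio of each measured gene (grey) against its mean log2 CPM over the 4 libraries, with the 10 ADAMTS genes in orange and dashed lines at 2-fold. The ADAMTS genes lie between -1.79 and 0.28, and 9 of the 10 are below 0.

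The second comparison set the mimic library against the negative control, both from knockout cells. No member was called in either direction, where 0.855% of 12512 measured genes were called higher and 0.352% lower. Intervals lay wholly above 0 for 5 members and wholly below 0 for 2 (Adamts4 and Adamts9), against 19.1% and 18.8% of measured genes, and the median ratio was 0.15 against -0.01 for all. With scaling to fibroblast markers 5 members were above 0 and 5 below.

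The members with the largest mimic ratios were Adamts12 and Adamts1. Adamts12 had 1477 counts with the mimic and 1136 with the negative control, a ratio of 0.47 (0.36 to 0.59), and Adamts1 had 4464 and 3507 counts, a ratio of 0.44 (0.38 to 0.51). Neither has a TACTTGA site. Adamts6, which holds the 8-base site, had 225 and 182 counts, a ratio of 0.40 (0.11 to 0.69), and Adamts7, with the same site in an alternative transcript, had 169 and 157 counts and 0.20 (-0.12 to 0.53). Adamts9, with the 7-base site TACTTGA, had 113 counts with the mimic and 162 with the negative control, a ratio of -0.42 (-0.78 to -0.07). Thus of the 3 members with TACTTGA, 2 had a ratio above 0 and 1 below. Adamts4, with no site, had 396 and 536 counts and a ratio of -0.34 (-0.53 to -0.15). Ratios were 0.07 (0.01 to 0.13) for Adamts5, 0.03 (-0.02 to 0.08) for Adamts2, 0.20 (0.01 to 0.39) for Adamts10 and 0.09 (-0.55 to 0.74) for Adamts15, whose 43 counts in each library leave a wide interval.

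The untransfected knockout library gives another reference, and comparisons with it share the mimic or the negative-control library with the one above. Between mimic and untransfected cells no member was called, where 0.263% of 12536 measured genes were called higher and 0.471% lower. Intervals were wholly above 0 for 3 members and below 0 for 1, against 17.3% and 17.4% of measured genes. Adamts12 stood at 0.61 (0.49 to 0.73), Adamts6 at 0.35 (0.06 to 0.65), Adamts1 at 0.26 (0.19 to 0.32) and Adamts4 at -0.29 (-0.49 to -0.09). Adamts9 had a ratio of 0.21 (-0.20 to 0.62) here, on the other side of 0 from its ratio to the negative control.

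Between the negative control and untransfected cells again no member was called, where 0.295% of 12532 measured genes were called higher and 0.718% lower. In this comparison the transfection, the control oligonucleotide and a difference between cultures cannot be told apart. Intervals were wholly above 0 for 2 members and below 0 for 2, against 16.4% and 17.0% of measured genes. Adamts9 had the largest ratio, with 162 against 93 counts or 0.63 (0.26 to 1.02). Its high library among the 3 knockout cultures was therefore the negative control, at 1.97 TPM against 1.25 and 1.46 TPM. Adamts12 had 0.14 (0.01 to 0.26) and Adamts1 -0.19 (-0.26 to -0.12). The ratios of the other 7 members were between -0.53 (-1.15 to 0.05) for Adamts15 and 0.05 (-0.13 to 0.23) for Adamts4. The macrophage marker median was 0.02 in this comparison and -0.04 between mimic and negative control, and the fibroblast median was -0.21 and 0.15.

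Related genes from fixed lists were set beside the members. Over all measured genes 7.00% were called lower and 5.91% higher between knockout and wild type. With scaling to fibroblast markers these shares were 2.40% and 28.7%, at a median of 0.77. Of 9 other ADAMTS genes 7 were in the table and 4 were measured between knockout and wild type, of which 3 were called lower. Adamts14, a further procollagen trimming enzyme, had 306 counts in wild type and 114 in the knockout, a ratio of -1.41 (-1.74 to -1.10), and 201 and 193 counts in the transfected libraries. Adamts3, of the same subgroup, had 29 and 6 counts, and Adamts17 had 39 and 8 counts, with ratios of -2.10 (-3.82 to -0.97) and -2.15 (-3.58 to -1.16). With a minimum of 5 CPM neither Adamts3 nor Adamts17 was measured. With scaling to fibroblast markers 2 of this list were called lower and 1 higher, and Adamts14, at -0.65 (-0.98 to -0.34), was not called. ADAMTS-like proteins and papilin, which lack the protease domain, were below 0 for all 5 measured members, with a median of -0.89 that became -0.13 with scaling to fibroblast markers. Among them Adamtsl1 at -1.11 (-1.38 to -0.85) and Papln at -1.38 (-2.54 to -0.46) were called lower, and neither was with scaling to fibroblast markers. Papln was not measured with a minimum of 5 CPM. Between mimic and negative control Adamtsl1 stood at 0.84 (0.53 to 1.16), the largest ratio among the ADAMTS-like genes measured there.

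Substrates of the members were also counted, to be read beside the same shares of all measured genes. Of 6 fibrillar procollagen genes, the substrates of Adamts2, 3 were called lower in the knockout library, and the median was -0.99 (-0.23 with scaling to fibroblast markers, a list that shares 3 of these genes). Col3a1, Col5a1 and Col1a2 had ratios of -1.58 (-1.59 to -1.56), -1.10 (-1.12 to -1.08) and -1.05 (-1.06 to -1.04), Col1a1 had -0.94 (-0.95 to -0.93), and Col2a1 was called higher, from 23 to 206 counts. Col2a1 was also called higher between mimic and negative control, at 1.04 (0.78 to 1.33). With scaling to fibroblast markers neither the 3 lower calls nor the mimic call was made. Pcolce, Bmp1 and the 2 other measured genes of carboxy-terminal processing had no call, with a median of -0.45 (0.30 with scaling to fibroblast markers). Versican, encoded by Vcan, had 48.8 TPM in wild type and 34.6, 32.5 and 33.45 TPM in the others, a ratio of -0.39 (-0.45 to -0.32).

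Other matrix substrates included 3 of 10 that were called lower in the knockout library, against 7.00% of all measured genes. Their median was -0.84 (-0.08 with scaling to fibroblast markers). Comp, which encodes the cartilage oligomeric matrix protein cut by Adamts7 and Adamts12, had 491 TPM in wild type and 80.6, 45.0 and 74.9 TPM in the others, a ratio of -2.48 (-2.55 to -2.40). Fbn2, a second fibrillin, stood at -2.60 (-2.81 to -2.40) and Nid2, a basement membrane protein, at -1.32 (-1.43 to -1.21). With scaling to fibroblast markers 2 of the 10 were called lower and 1 higher, against 2.40% and 28.7% of measured genes. Nid2, at -0.56 (-0.67 to -0.45), was not called there. On deposited TPM 5 of the 10 were called lower, against 8.04% of measured genes. Comp, Fbn2 and Nid2 were named after their values were seen.

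Aggrecan, the classic substrate of Adamts4 and Adamts5, was hardly expressed. Acan had 26, 22, 5 and 24 counts, so its calls, -2.08 (-4.06 to -0.87) for negative control to untransfected knockout and 2.14 (0.94 to 4.11) for mimic to negative control, rest on 5 counts in the negative-control library. Bcan was called lower in the knockout library on 25 and 11 counts, at -1.11 (-2.34 to -0.10). That call was not made with scaling to fibroblast markers or with a prior of 4 counts, and Bcan was not measured with a minimum of 5 CPM. Fbn1, the fibrillin that Adamts10 binds, had 641, 345, 101 and 383 TPM in the same order. Its negative-control library was the lowest, with calls of -1.80 (-1.83 to -1.77) against the untransfected knockout and 1.90 (1.87 to 1.94) for mimic to negative control, while Adamts10 had 10.8 TPM there against 11.4 and 12.2 TPM.

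Regulators of ADAMTS activity went both ways. Timp3 had 324 TPM in wild type and 1051, 709 and 1525 TPM in the knockout libraries, in the order used above. It was called higher in the knockout library at 1.83 (1.80 to 1.85) and with the mimic against the negative control at 1.10 (1.08 to 1.11), and the second call was not made with scaling to fibroblast markers. Pcsk5, a convertase of the furin family, which removes prodomains, was called lower in the knockout library at -1.48 (-1.78 to -1.20), and so was Mmp17, a membrane metalloprotease, at -1.06 (-1.22 to -0.90), and neither call was made with scaling to fibroblast markers. Lrp1, the receptor that clears Adamts5, had 573 TPM in wild type and 588 to 625 TPM in the others, a ratio of 0.23 (0.22 to 0.25). Of 5 measured cytokines and growth factors reported to induce ADAMTS genes 2 were called higher in the knockout library, against 5.91% of all measured genes. These were Tnf at 1.56 (1.21 to 1.94) and Osm at 1.04 (0.38 to 1.78), both chosen for mention after their values were seen. Osm was not called on deposited TPM, at 0.89 (0.23 to 1.63), or with a prior of 4 counts, at 0.97. With scaling to fibroblast markers all 5 were called higher, but that scaling moved the median of all measured genes to 0.77 and called 28.7% of them higher.

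The members were set beside other metalloprotease families. Of 14 measured matrix metalloproteinases 7 were called lower and 2 higher in the knockout library, against 7.00% and 5.91% of all measured genes. Their median was -0.93, with ratios from -3.90 to 1.63. Of 11 measured ADAM genes 1 was called lower and 1 higher, with a median of 0.16. With scaling to fibroblast markers 4 matrix metalloproteinases were called lower and 3 higher with a median of -0.17. Of the ADAM genes, at a median of 0.92, 4 were called higher and none lower. Under that scaling the median of all measured genes was 0.77, with 28.7% called higher and 2.40% lower. On deposited TPM 7 matrix metalloproteinases were called lower and 2 higher with a median of -1.06. For the ADAM genes 1 was called lower and none higher, with a median of 0.00. All measured genes then had a median of -0.11, with 8.04% called lower and 4.57% higher. Between mimic and negative control the medians were -0.01 for the matrix metalloproteinases, -0.29 for the ADAM genes and 0.15 for the members. These are descriptions of lists, and no difference between the lists was tested.

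**Figure D4:**
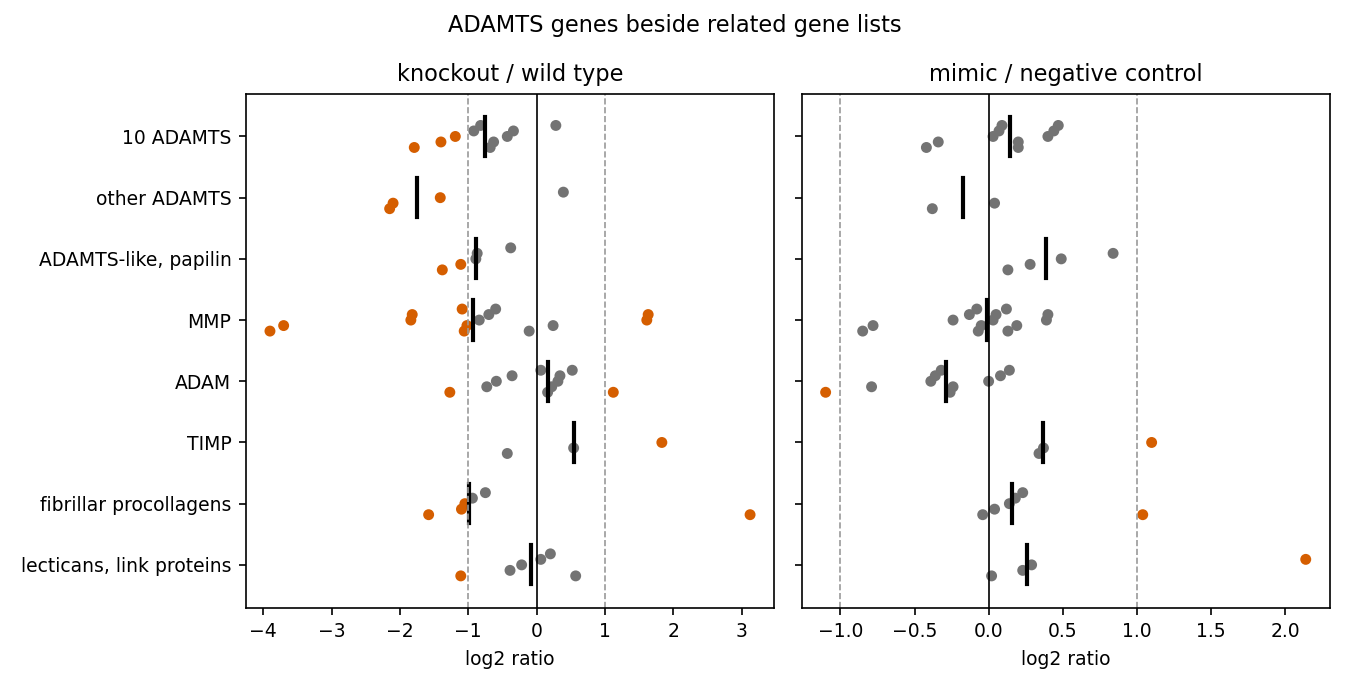
Log2 ratios of measured genes in 8 lists for knockout to wild type (left) and mimic to negative control (right); each point is a gene, orange points are past the dashed 2-fold lines with a counting interval that excludes 0, and black bars are list medians. The 10 ADAMTS genes span -1.79 to 0.28 on the left and -0.42 to 0.47 on the right, and the matrix metalloproteinases (MMP) span -3.90 to 1.63 on the left.

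The 3 members with the largest range over the 4 libraries were Adamts15, Adamts4 and Adamts1, at 2.33, 1.69 and 1.38 on the log2 scale. The genes searched were the 10511 with at least 5 TPM in some library, leaving out Gm-number, Rik, clone and LOC symbols. Likeness was the root-mean-square distance of mean-centred log2 CPM over 4 libraries. Closest to Adamts1 was Lrig1 at a distance of 0.011, with 34.8, 13.8, 12.5 and 17.3 TPM, then Sec16b (0.031) and Pcdhga9 (0.035). Closest to Adamts4 were Kcna6 (0.011), Gem (0.041) and Vegfd (0.043), and closest to Adamts15 were Igf2 (0.058), Synm (0.062) and C4b (0.074). With 4 points and so many genes, close matches are common, and the distances describe these libraries alone.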

How the data were processed

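Total RNA was sequenced by BGI Genomics, per the labels' protocols. FastQC, HISAT, Bowtie2 and the builds GRCm38.p6 and mm10 are named, without roles, in the submitters' processing notes, and the sources used here do not give the quantification tool, its annotation or whether strand was used. Per the file headers the authors deposited read counts, which are estimated counts not scaled by library size (4.99% to 5.28% of values per library have decimals), and TPM, used here for levels. The authors' own fold changes and p-values were not used. Dates in place of 26 gene symbols were restored through Entrez identifiers.

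Counts were rounded for the intervals and scaled with edgeR 4.0.16 TMM factors (0.978, 1.00, 1.02 and 0.997 in the order wild type, knockout, negative control and mimic) in R 4.3.3. DESeq2 1.42.0 gave size factors for an alternative. Ratios and exact conditional binomial (Clopper-Pearson) intervals were computed in Python 3.11.15 with scipy 1.17.1 over all genes, and tested on simulated data. Reads are not independent molecules, so intervals cover counting error only. The members and lists were chosen with earlier results of these data known. Genes were named if they were members, if called among the other ADAMTS, ADAMTS-like, procollagen, carboxy-terminal processing, proteoglycan and regulator lists, or if fixed by name (Timp3, Lrp1, Acan, Vcan, Fbn1, Col1a1, Col3a1), and like genes by distance. Pcolce, Bmp1, Adamts8, Comp, Fbn2, Nid2, Tnf and Osm fall outside this rule and were chosen after their values were seen, and overlapping genes were found by position. Sites came from GENCODE M21 and promoters from RefSeq. Alternatives were total-count scaling, DESeq2 size factors, scaling to fibroblast markers, a minimum of 5 CPM or none, a prior of 4 counts, deposited TPM with 0.1 added, and a 1.5-fold limit. Some marker and overlap results are not reported here.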

Additional observations from a re-analysis of the deposited data

How the results depend on the processing

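No paired analysis was possible because each group holds 1 library, and for the same reason no library could be left out. The count of members called lower in the knockout library (3) was also 3 with total-count scaling, DESeq2 size factors, either filter and a prior of 4 counts, and it was 4 on deposited TPM, which adds Adamts5. On deposited TPM 8.04% of measured genes were called lower, against 7.00% in the main setting, and their median was -0.11. With scaling to fibroblast markers the count of members called lower was 1, with 1 called higher. That scaling moves the median of all measured genes from 0.01 to 0.77, and the calls over all genes to 3675 higher and 307 lower from 757 and 896. At a 1.5-fold limit, which is looser by construction, 7 members were called lower in the knockout library, against 13.2% of measured genes. With the negative control 1 member (Adamts9) was called higher than in untransfected knockout cells, against 0.981% of measured genes. With the mimic 1 member (Adamts12) was called higher than in untransfected knockout cells, against 1.12% of measured genes. Over all genes a minimum of 5 CPM left 556 higher and 556 lower between knockout and wild type, 43 and 10 between mimic and negative control, from 107 and 44, 5 and 33 between negative control and untransfected knockout, from 37 and 90, and 3 and 9 between mimic and untransfected knockout, from 33 and 59. Of 40 member ratios, all 40 kept their sign with DESeq2 size factors and with a prior of 4 counts, 39 with total-count scaling (Adamts2 between mimic and negative control went from 0.03 to just below 0), 37 on deposited TPM, and 25 with scaling to fibroblast markers. Adamts1 and Adamts4 were not called with scaling to fibroblast markers, at -0.43 and -0.64. Depth limits Adamts6, Adamts7, Adamts9 and Adamts15 most, which have fewer than 300 counts in each library.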
